A study of Homo sapiens with 6 samples.

Results

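The genes described are mainly enzymes that add or remove methyl groups on histone lysines and enzymes that remove acetyl groups. With them are 2 non-catalytic core subunits of Polycomb repressive complex 2 and SET domain proteins with other or no known histone target. All were chosen by gene symbol among protein-coding genes and came to 61 of the 46427 genes in the files (19672 of them protein coding). The symbol pattern uses no measured values, but it was chosen with earlier results of these data known. The same holds for the lists of related genes called fixed by name. The 61 genes were sorted into 15 classes by the residue they act on or by their family. RNA came from K562 cells, an erythroleukemia line that carries the BCR-ABL1 fusion, labelled wild type. Vehicle cells (3 libraries) received 0.1% DMSO for 24 h and treated cells (3 libraries) received 10 µM HR-19011 for 24 h. The labels give no DMSO percentage for the treated libraries and do not say whether each library of a group had its own culture. The p-values thus reflect the spread among these libraries alone, and that spread may be technical. HR-19011 is a compound given by its code name, which the series title links to the HRI, eIF2α and ATF4 stress pathway.

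Histone lysine methylation is written by SET domain methyltransferases (and by DOT1L, which has a different fold) and erased by flavin-dependent or Jumonji demethylases. Methylation of histone H3 at lysine 4 (H3K4) and lysine 36 (H3K36) marks active genes, while methylation at lysine 9 (H3K9) and lysine 27 (H3K27) marks silenced ones. Histone deacetylases of classes I, II and IV use zinc and sirtuins use NAD. In erythroid cells KDM1A, HDAC1 and HDAC2 serve as corepressors of the transcription factor GFI1B, and several of these enzymes take part in silencing fetal globin genes.

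Levels are given as FPKM, fragments scaled for transcript length and library size, which allows levels of different genes to be set side by side. Summed FPKM per library was 456639 to 467595 in vehicle and 420661 to 427819 after treatment, and read depth is unknown. A difference is called at a Benjamini-Hochberg adjusted p under 0.05 in limma, over the 11856 genes whose mean over all 6 libraries reached 1 FPKM. Fold changes written as log2 are on the log2(FPKM + 1) scale, and plain folds are ratios of group means. The K562 markers fixed by name were all present in every library. Of these 10 markers 8 were lower and none higher, beside 38.0% lower and 46.4% higher among all tested genes. Their summed FPKM was 8668 to 8838 in vehicle and 3612 to 3799 after treatment. Most of that sum was the globins HBG1 and HBG2, with means of 3349 and 4386 FPKM in vehicle. TAL1 and ABL1 were not called, and BCR and TFRC were lower with log2 changes of -0.17 and -0.16. Of the markers of other cell types, KRT5, KRT14 and MS4A1 were listed at 0 in all libraries and the 4 fibroblast markers stayed under 1 FPKM. The epithelial list summed to 80.9 ± 1.22 FPKM (SD, n = 3) in vehicle and 141 ± 3.27 in treated cells through EPCAM and KRT19, the lymphocyte list to 7.83 ± 1.52 and 12.9 ± 0.243, mostly through CD3D, and the monocyte list to 11.8 ± 0.369 and 12.9 ± 0.525, mostly through LYZ. The part of any of these in the results was not tested.

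Of the 61 genes, 56 passed the filter and were tested, and 23 were higher, 23 lower and 10 not called. As shares of the tested members these are 41.1% higher and 41.1% lower, against a background of 46.4% higher and 38.0% lower among all tested genes, so the overall counts lie near those of the transcriptome. The libraries of the 2 groups did not overlap for 46 members, or 82.1%, against 85.2% of all tested genes. At least 2-fold calls on the log2 scale numbered 4 higher (background 12.0%) and 0 lower (background 6.45%). After TMM scaling they numbered 2 higher (KDM6B and KDM7A) and 2 lower (KDM2B and EED), and after TPM conversion 6 and 0. The 2-fold shares of all tested genes under these scalings were not computed, so these counts have no background beside them. The median log2 fold change was 0.04 for the members and 0.07 for all tested genes. In bulk RNA, fewer cells of a kind and less RNA per cell cannot be told apart. By enzyme class the directions of the calls were uneven. Among 19 methyltransferases and Polycomb core genes with an assigned histone residue, 12 fell and 3 rose, whereas among 15 tested demethylases 10 rose and 4 fell. The 4 class I deacetylases fell, while 4 of the 6 tested sirtuins rose and 0 fell (2 fell after TMM scaling). These are counts beside the background, and the difference between the classes was not tested.

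**Figure D1:**
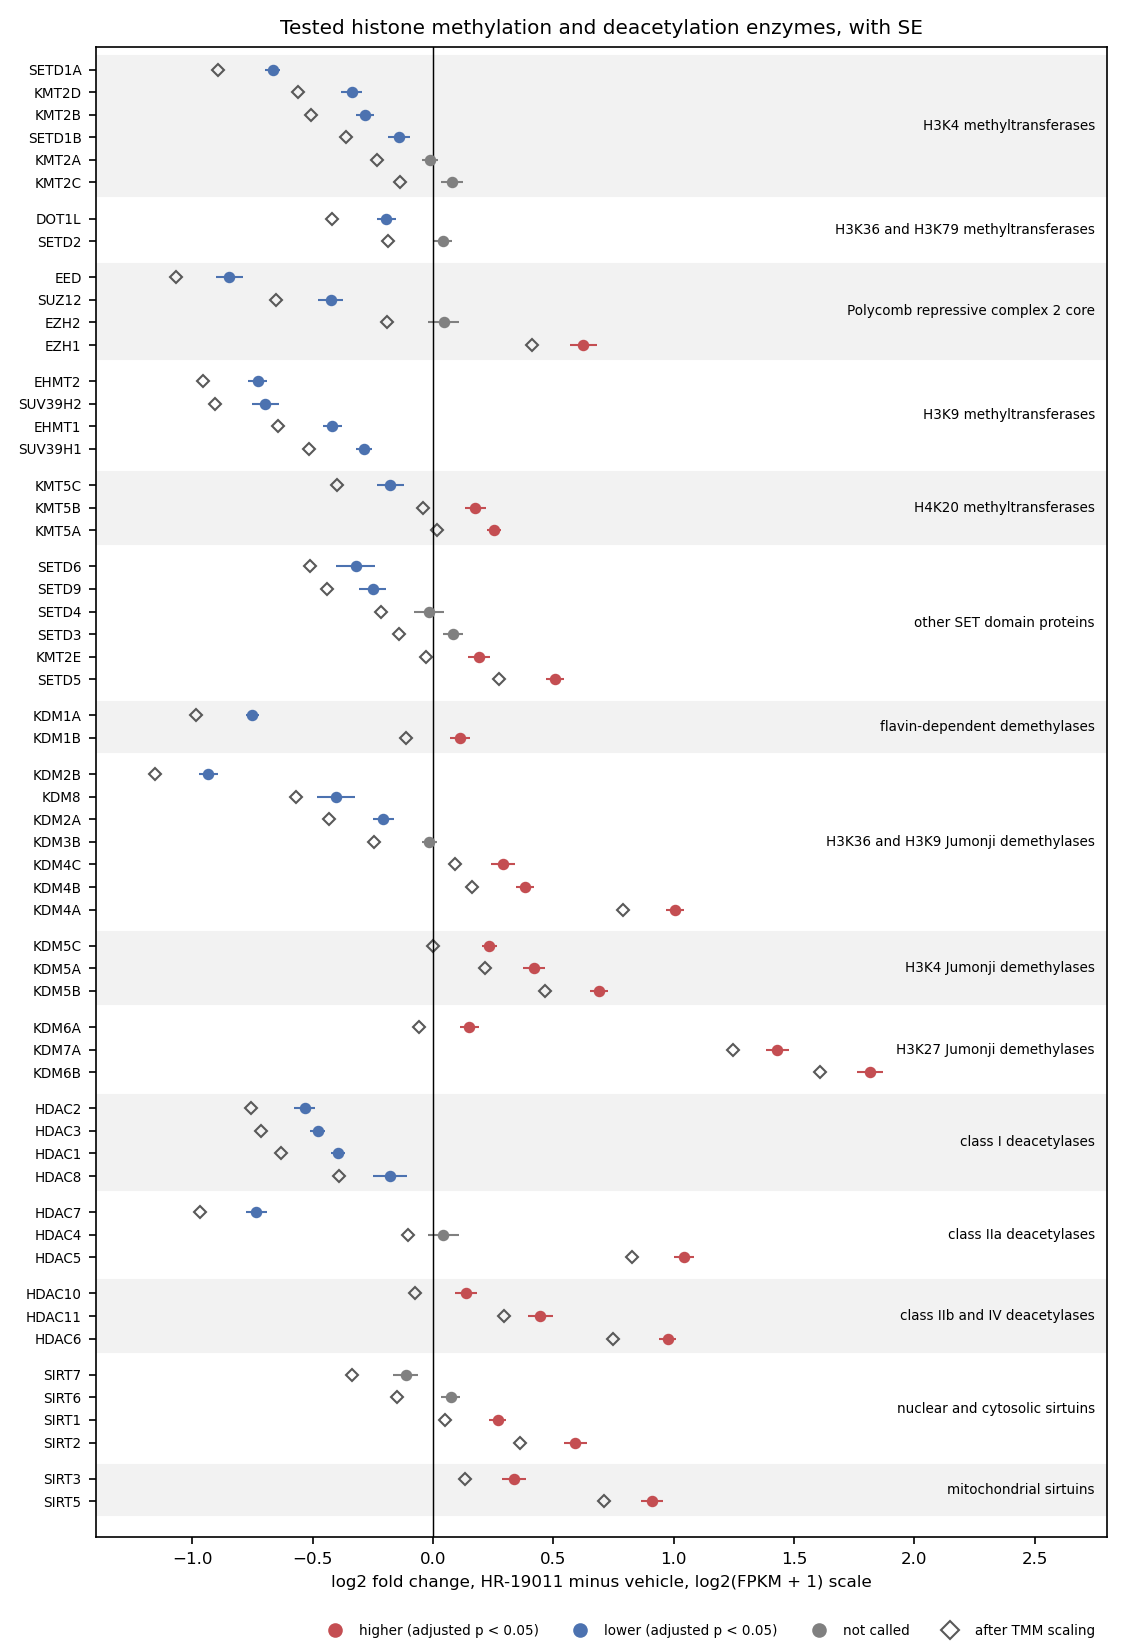
Log2 fold change (HR-19011 minus vehicle, x axis) with its standard error for each of the 56 tested members, grouped by class. Filled circles are FPKM as deposited, coloured by call, and open diamonds show the value after TMM scaling. TMM moves every member to the left, which leaves the H3K9 methyltransferases and class I deacetylases below 0. It brings KDM5C, KDM6A and HDAC10, among others, to 0 or below.

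How the libraries are scaled sets where 0 lies. Trimmed-mean (TMM) scaling shifted the median of all tested genes by -0.21 on the log2 scale, and conversion to TPM shifted it by 0.12. The share of higher calls among all called genes was 55.0% as deposited, 41.1% after TMM and 62.2% after TPM conversion. Among the members TMM gave 14 higher and 33 lower, TPM 30 and 18. The methyltransferases were then 16 lower of 19 under TMM, beside 50.1% of all tested genes, and 9 lower under TPM, beside 32.1%. The demethylases were 6 higher of 15 under TMM, beside 34.96%, and 11 under TPM, beside 52.9%. Under TMM KDM1A, KDM1B, KDM2A, KDM2B, KDM3B and KDM8 were called lower, so as many demethylases fell as rose. Under TPM KDM1A, KDM2B and KDM8 were called lower.

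The 6 genes of the H3K4 methyltransferase class were lower or not called. SETD7, which also monomethylates H3K4, was placed with the other SET domain proteins described further on. It was under the filter and has no test, but its listed FPKM was higher in every treated library than in any vehicle library. SETD1A, the catalytic subunit of a COMPASS complex that trimethylates H3K4 at promoters, was listed at 20.5, 20.4 and 20.1 FPKM in the vehicle libraries and 12.4, 12.6 and 12.4 in HR-19011. The groups lay far apart relative to their spread, with a log2 change of -0.67 (SE 0.0317, limma adjusted p = 7.61e-08). Its paralog SETD1B went from 9.89 ± 0.580 to 8.86 ± 0.0705 FPKM (SD, n = 3), a call lost under TPM conversion (limma adjusted p = 0.544) and without vehicle replicate 2 (0.0564), vehicle replicate 3 (0.0657) or HR-19011 replicate 1 (0.0522). KMT2D, which monomethylates H3K4 at enhancers, fell from 16.7, 17.0 and 17.7 FPKM to 12.6, 13.7 and 13.7, and KMT2B fell from 14.1 ± 0.497 to 11.4 ± 0.207 FPKM. KMT2A, the MLL gene rearranged in leukemias, was listed at 12.03 to 12.43 FPKM in vehicle and 12.00 to 12.24 in treated cells, so its groups overlapped (log2 fold change -0.01, SE 0.0339, limma adjusted p = 0.738). KMT2C, with 8.84 ± 0.364 and 9.39 ± 0.359 FPKM, was not called either, and it shares sequence with partial copies elsewhere in the genome, so its value is uncertain. KMT2A and KMT2C were called lower after TMM scaling and higher after TPM conversion, and KMT2A lower after quantile normalization.

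The Jumonji demethylases of the same residue, the KDM5 genes, were called higher. KDM5B, a Jumonji demethylase of H3K4, was listed at 11.6, 11.4 and 11.6 FPKM in vehicle and 19.8, 19.3 and 18.4 in treated cells, a log2 change of 0.69 (SE 0.0370, limma adjusted p = 1.70e-07). KDM5A rose 1.41-fold, from 4.54 ± 0.165 to 6.40 ± 0.229 FPKM. KDM5C, the most abundant of the family, was at 35.4, 36.2 and 35.6 FPKM and then 41.2, 43.4 and 42.1, with no overlap. The KDM5C difference became 0.00 after TMM scaling, while KDM5A and KDM5B kept their calls there. Summed over the 6 genes of the H3K4 methyltransferase class, FPKM went from 82.6 ± 0.948 to 67.6 ± 0.852 (SD, n = 3). Over the 3 KDM5 genes it went from 51.8 ± 0.205 to 67.8 ± 1.42. KDM1A, a flavin-dependent demethylase of H3K4 described further on, fell. With KDM1A added, the summed FPKM of these 4 demethylases went from 124 ± 1.30 to 110 ± 1.49. KDM1B, the other flavin-dependent member, is not in that sum and went from 15.2 ± 0.792 to 16.4 ± 0.255 FPKM.

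Partner subunits of the H3K4 methyltransferases were lower as well. Of 12 COMPASS subunits fixed by name, 11 fell and 1 rose, beside 38.0% lower and 46.4% higher among all tested genes, with a median log2 change of -0.48. WDR5, the scaffold that all these enzymes bind, fell 2.09-fold, from 39.9 ± 0.577 to 19.1 ± 0.529 FPKM (SD, n = 3). PAXIP1, found with KMT2C and KMT2D, fell 1.89-fold. PSIP1, which tethers KMT2A and its partner MEN1 to chromatin, rose 1.65-fold.

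The 4 H3K9 methyltransferases that fit the symbol pattern fell. Others, outside that pattern and named after their values were seen, were called higher: SETDB1, which trimethylates H3K9 at retroelements, rose 1.35-fold, from 10.98 ± 0.118 to 14.8 ± 0.661 FPKM (SD, n = 3), and SETDB2 and PRDM2 had log2 changes of 0.14 and 0.13. EHMT2, also called G9a, which mono- and dimethylates H3K9 in euchromatin, was listed at 24.1, 25.6 and 25.5 FPKM in vehicle and 14.8, 15.1 and 14.3 in treated cells. That is a 1.70-fold drop with groups well separated (log2 fold change -0.73, SE 0.0382, limma adjusted p = 1.43e-07). Its partner EHMT1 fell from 17.8 ± 0.801 to 13.1 ± 0.237 FPKM (SD, n = 3). Of the heterochromatin enzymes, SUV39H2 went from 10.2, 9.07 and 9.55 FPKM to 5.33, 5.94 and 5.36, and SUV39H1 from 18.6, 18.1 and 18.7 to 14.8, 15.2 and 14.8. The 4 calls held under TMM, TPM and quantile scaling. The summed FPKM of the 4 genes went from 70.9 ± 1.00 to 48.3 ± 1.12.

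The Jumonji enzymes that remove H3K9 and H3K36 methylation split by subfamily. KDM4A, a demethylase of trimethylated H3K9 and H3K36 (chr1:43650149-43705518), was at 7.04, 7.28 and 7.19 FPKM in vehicle and 15.7, 15.6 and 15.0 in treated cells. It was 1 of the 4 members called at least 2-fold higher on the log2 scale, with a log2 change of 1.01 (SE 0.0371, limma adjusted p = 1.52e-08). KDM4B and KDM4C rose 1.34-fold and 1.27-fold, though KDM4C was not called after TMM scaling or quantile normalization (log2 changes of 0.09 and 0.07). By contrast KDM2B, an H3K36 demethylase that also brings a variant Polycomb complex to CpG islands, fell from 15.40, 15.78 and 15.97 FPKM to 8.09, 7.60 and 7.55. Its log2 change of -0.93 (SE 0.0396) was the lowest of all 56 tested members. KDM2A fell 1.17-fold, a call lost under TPM conversion (limma adjusted p = 0.0897), and KDM8 went from 2.82 ± 0.434 to 1.87 ± 0.0472 FPKM. KDM3B, an H3K9 demethylase and the most abundant gene of the class, was listed at 22.0 to 22.8 FPKM in vehicle and 21.9 to 22.8 in treated cells. It was not called as deposited, with an adjusted p of 0.678, but was called lower after TMM scaling and higher after TPM conversion.

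The strongest rises of the whole set were H3K27 demethylases. KDM6B, also called JMJD3, a demethylase of trimethylated H3K27 known to be induced by inflammatory signals (GRCh38 chr17:7834217-7854796), was listed at 3.30, 3.49 and 3.88 FPKM in vehicle and 14.5, 15.0 and 15.4 in treated cells. It rose 4.22-fold (log2 fold change 1.81, SE 0.0542, limma adjusted p = 4.28e-09) and moved from rank 52 to rank 18 among the 61 genes by mean FPKM. KDM7A, which removes dimethyl marks from H3K9 and H3K27 (chr7:140084746-140176983), rose from 2.02, 1.89 and 1.83 FPKM to 6.77, 6.91 and 6.84, or 3.58-fold. The X-linked family member KDM6A, or UTX, was at 6.815, 6.935 and 6.649 FPKM and then 7.565, 7.910 and 7.513. Its small rise turned to -0.06 after TMM scaling and -0.01 after quantile normalization. The summed FPKM of the 3 genes went from 12.3 ± 0.120 to 29.5 ± 0.555 (SD, n = 3). A divergent transcript next to KDM7A, KDM7A-DT, also rose, from 2.70 ± 0.157 to 3.99 ± 0.198 FPKM.

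The subunits of Polycomb repressive complex 2, which writes H3K27 methylation, did not move together. EED, the subunit that reads the mark and activates the enzyme (chr11:86244753-86287615), was at 17.7, 17.7 and 19.8 FPKM in vehicle and 9.79, 10.4 and 9.17 in treated cells, a 1.88-fold drop (log2 fold change -0.85, SE 0.0570, limma adjusted p = 7.93e-07). SUZ12, the scaffold subunit, fell from 23.5, 20.2 and 22.0 FPKM to 15.97, 15.78 and 16.29. The main catalytic subunit EZH2 was listed at 49.7, 54.6 and 56.0 FPKM in vehicle and 55.6, 59.7 and 50.3 in treated cells. Its groups overlapped, and its log2 change of 0.04 (SE 0.0647, limma adjusted p = 0.536) was not called. EZH2 was called lower after TMM scaling (-0.19, limma adjusted p = 0.0211) and higher after TPM conversion (0.17, limma adjusted p = 0.0326) and quantile normalization (0.20, limma adjusted p = 0.0142). EZH1, the second catalytic subunit, typical of resting cells, rose from 5.42, 6.38 and 6.15 FPKM to 9.82, 9.79 and 9.64. SUZ12P1, a partial pseudogene copy of SUZ12, was listed at 5.29 ± 0.365 and 4.78 ± 0.486 FPKM and was not called. The way reads matching both were divided, and whether counting used strand, was not stated in the labels.

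Of 7 tested accessory subunits of the complex, 4 fell and 2 rose (57.1% and 28.6%, beside 38.0% and 46.4% of all tested genes). The histone chaperone RBBP7 and PHF19, a subunit that binds methylated H3K36, fell 1.46-fold and 1.45-fold, and PHF19 was the highest of them at 134 ± 4.00 FPKM in vehicle and 92.4 ± 1.21 in treated cells (SD, n = 3). PHF1, a paralog of PHF19, rose 1.84-fold, from 16.9 ± 0.759 to 31.1 ± 1.76 FPKM.

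Promoter sequence was examined in the RefSeq table of GRCh38.p14, which covers the region around annotated gene starts and matched 56 of the 61 genes. The E2F sites TTTCCCGC and TTTGGCGC, bound by a factor of proliferating cells, and the C/EBP-ATF element TGATGNAAT, bound by ATF4, were searched on both strands. TTTCCCGC was present for SUZ12, KDM1B and SIRT6, 5.36% of the matched members against 1.98% of all 27305 genes in the table. TTTGGCGC was present for EZH2 alone (1.79% against 0.795%), and TGATGNAAT for no member, against 1.22% of all genes. The 3 windows below hold E2F letters of SUZ12, EZH2 and KDM1B in capitals, and the other windows show the 80 bases before the first start of KDM6B and the start of KDM7A, the genes that rose most, where none of these letters occurs.
SUZ12: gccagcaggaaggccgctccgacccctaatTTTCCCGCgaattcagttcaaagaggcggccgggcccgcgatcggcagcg
EZH2: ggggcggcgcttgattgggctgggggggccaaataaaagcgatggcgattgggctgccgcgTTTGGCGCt
KDM1B: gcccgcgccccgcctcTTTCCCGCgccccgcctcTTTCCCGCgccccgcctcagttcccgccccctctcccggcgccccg
KDM6B: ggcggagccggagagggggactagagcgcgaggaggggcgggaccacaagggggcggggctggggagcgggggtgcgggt
KDM7A: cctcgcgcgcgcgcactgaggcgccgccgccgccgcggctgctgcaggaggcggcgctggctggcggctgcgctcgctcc

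The windows lie at chr17:31936788-31936867 on the plus strand for SUZ12, chr7:148884282-148884351 on the minus strand for EZH2, chr6:18155172-18155251 on the plus strand for KDM1B, chr17:7834137-7834216 on the plus strand for KDM6B and chr7:140176984-140177063 on the minus strand for KDM7A. Counted from the annotated start, the SUZ12 match begins at base -189, the EZH2 match at base 2 and the KDM1B matches at bases -234 and -216. The genes with E2F letters went in different directions: SUZ12 fell, KDM1B was called higher, and EZH2 and SIRT6 were not called. The matches describe these windows and no more.

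Of the remaining methyltransferases, those of H4K20 moved little. KMT5A, the only monomethyltransferase of H4K20 and a cell cycle regulated enzyme, was among the most abundant members, at 55.9, 55.1 and 57.1 FPKM in vehicle and 67.5, 67.6 and 65.8 in treated cells. Its log2 change of 0.25 (SE 0.0274) fell to 0.02 after TMM scaling and was then not called, with an adjusted p of 0.525. KMT5B, which adds further methyl groups, was at 9.33 ± 0.390 and 10.7 ± 0.252 FPKM (SD, n = 3), and its rise turned to -0.04 after TMM scaling. KMT5C, its paralog, was at 13.7 ± 0.653 and 12.02 ± 0.935 FPKM with overlapping groups, a call lost without replicate 2 or 3 of either group (limma adjusted p = 0.0568 to 0.064) and under TPM conversion (limma adjusted p = 0.339). KMT5A has processed pseudogenes, of which KMT5AP1 was the highest at 0.948 ± 0.0628 and 1.13 ± 0.171 FPKM. DOT1L, the H3K79 methyltransferase, was listed at 18.2, 18.9 and 19.8 FPKM and then 16.9, 16.2 and 16.3, a fall lost under TPM conversion (limma adjusted p = 0.0818). SETD2, which trimethylates H3K36, was not called (15.8 ± 0.630 and 16.2 ± 0.116 FPKM) but was lower after TMM scaling (-0.19) and higher after TPM conversion (0.16).

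Among SET domain proteins with other or no known histone target, SETD5 rose 1.44-fold, from 22.6, 22.5 and 23.8 FPKM to 31.8, 34.2 and 33.1, and KMT2E rose 1.15-fold, a rise not called after TMM scaling (-0.03) or quantile normalization (0.10). SETD6, which methylates the NF-kappaB subunit RELA, fell 1.32-fold, and SETD9 fell from 4.34 ± 0.132 to 3.49 ± 0.260 FPKM (SD, n = 3). SETD3, the actin histidine methyltransferase, and SETD4 were not called as deposited, and both were lower after TMM scaling (-0.14 and -0.22). SETD3 was called higher after TPM conversion (0.21) and SETD4 lower after quantile normalization (-0.23). SETD7, a monomethyltransferase of H3K4 and many other proteins, was under the filter, at 0.420, 0.411 and 0.523 FPKM in vehicle and 1.46, 1.52 and 1.51 in treated cells, and has no test. Its groups did not overlap.

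KDM1A, also called LSD1, was the second most abundant member in vehicle libraries and fell in HR-19011. This flavin-dependent demethylase of mono- and dimethylated H3K4 (chr1:23019468-23083689) was listed at 71.5, 70.8 and 73.2 FPKM in vehicle and 43.2, 41.9 and 41.7 in treated cells. The drop was 1.70-fold (log2 fold change -0.75, SE 0.0283, limma adjusted p = 1.76e-08). Its relative KDM1B went from 15.2 ± 0.792 to 16.4 ± 0.255 FPKM (SD over 3 libraries). Its log2 change of 0.11 (limma adjusted p = 0.0351) turned to -0.11 after TMM scaling, and the gene lost its call without vehicle replicate 2 or any 1 of the 3 HR-19011 libraries.

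The 4 class I deacetylases, most of them catalytic subunits of nuclear corepressor complexes, were called lower. HDAC1, the highest of the 61 genes in both groups, was at 98.5, 94.9 and 99.8 FPKM in vehicle and 75.8, 73.1 and 73.3 in treated libraries (log2 fold change -0.39, SE 0.0297, limma adjusted p = 1.69e-06). Its close paralog HDAC2 went from 17.9, 17.7 and 18.7 FPKM to 12.7, 12.2 and 11.6, and HDAC3, the enzyme of the NCOR complex, from 60.5, 60.2 and 59.3 to 42.2, 44.3 and 41.8. The drops were 1.32-fold, 1.48-fold and 1.40-fold and held under TMM, TPM and quantile scaling. HDAC8 was at 7.56 ± 0.713 and 6.55 ± 0.501 FPKM with overlapping groups and a limma adjusted p of 0.0414, and it was not called after TPM conversion (limma adjusted p = 0.338). Between 3 and 4 members of the class were called lower when 1 library was left out, with 3 without vehicle replicate 1 or 3 or HR-19011 replicate 1 or 3. The class sum went from 183 ± 3.41 to 136 ± 2.11 FPKM.

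**Figure D2:**
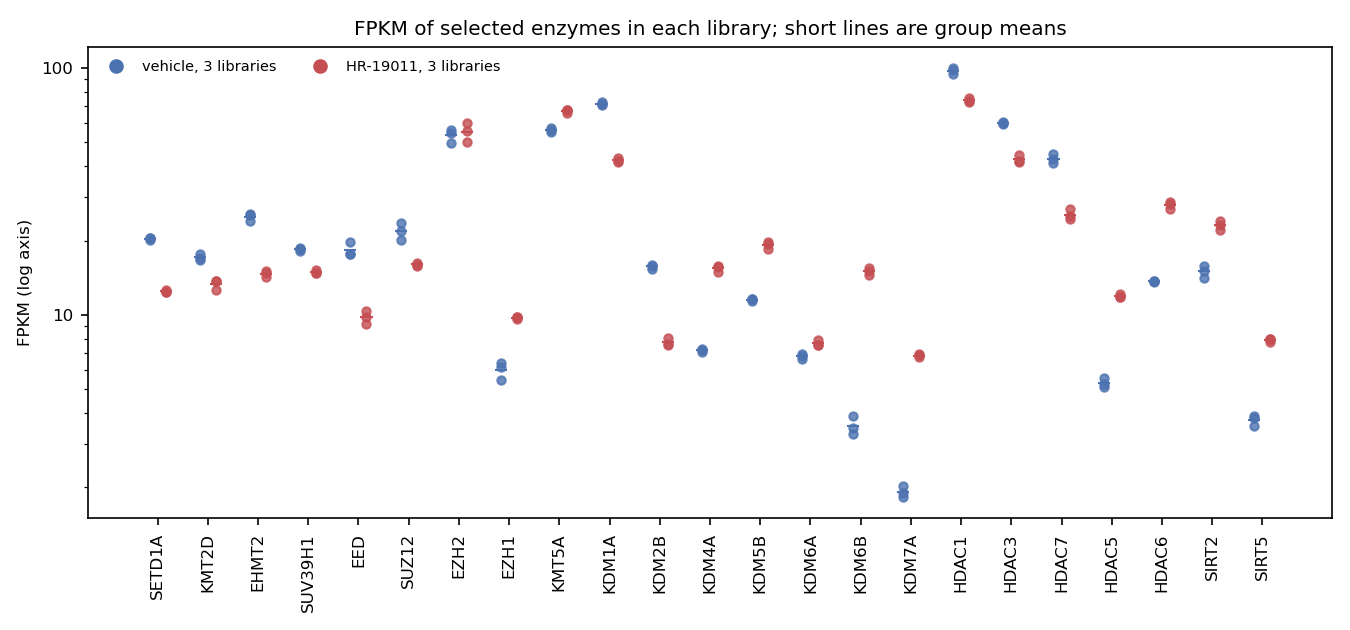
FPKM on a log axis of 23 members in each of the 3 vehicle and 3 HR-19011 libraries, 1 point per library, with short lines at group means. The points of the groups separate for all of them but EZH2, and KDM6B and KDM7A show the widest gaps.

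The other zinc-dependent deacetylases went in several directions. HDAC6, a class IIb enzyme that deacetylates tubulin in the cytosol (chrX:48801398-48824982), rose 2.04-fold, from 13.7, 13.6 and 13.7 FPKM to 26.8, 28.7 and 28.1 (log2 fold change 0.98, SE 0.0350, limma adjusted p = 1.29e-08). HDAC11, the class IV enzyme, rose from 1.38 ± 0.0390 to 2.24 ± 0.0745 FPKM (SD, n = 3) but was not called after quantile normalization (0.07), and HDAC10, a polyamine deacetylase, was at 7.61 ± 0.314 and 8.47 ± 0.294 FPKM. The HDAC10 call was lost without vehicle replicate 1 or HR-19011 replicate 1, and its sign turned under TMM scaling and quantile normalization. In class IIa, whose members shuttle between nucleus and cytoplasm and bind MEF2 factors, HDAC5 rose and HDAC7 fell. HDAC5 was at 5.11, 5.53 and 5.26 FPKM and then 11.8, 12.2 and 11.9 (log2 fold change 1.04), and HDAC7 at 41.4, 44.9 and 42.7 and then 25.1, 26.8 and 24.5 (log2 fold change -0.73). HDAC4 was low, at 1.56 ± 0.0519 and 1.64 ± 0.178 FPKM, and was not called as deposited, but was called lower after quantile normalization (-0.33, limma adjusted p = 0.00165). HDAC9 stayed under 0.215 FPKM in every library, at 0.0126 ± 0.00189 in vehicle and 0.162 ± 0.0914 in treated cells, and was not tested.

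Sirtuins rose or were not called. SIRT5, a mitochondrial enzyme that removes succinyl and malonyl groups, rose 2.11-fold, from 3.88, 3.83 and 3.55 FPKM to 8.01, 8.01 and 7.77 (log2 fold change 0.91, SE 0.0455, limma adjusted p = 1.06e-07). SIRT3, the main mitochondrial deacetylase, went from 5.28 ± 0.299 to 6.93 ± 0.221 FPKM (SD, n = 3). SIRT2, which is mostly cytosolic, rose from 15.8, 14.2 and 15.0 FPKM to 22.1, 23.2 and 24.0, and the nuclear SIRT1 from 8.89, 8.55 and 8.82 to 10.8, 10.5 and 10.9. The SIRT1 rise was not called after TMM scaling (limma adjusted p = 0.212). The chromatin-bound SIRT6 and nucleolar SIRT7 were not called, at 12.6 ± 0.489 and 13.3 ± 0.110 FPKM and at 13.9 ± 0.494 and 12.8 ± 0.853, yet both were called lower after TMM scaling (-0.15 and -0.34). SIRT6 was called higher after TPM conversion (0.20), SIRT7 was called lower after quantile normalization (-0.18) and with totals equalized without globin and mitochondrial genes (-0.13), and 1 sirtuin was called lower without HR-19011 replicate 3. SIRT4 was under the filter, at 0.754 ± 0.179 and 1.13 ± 0.198 FPKM.

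Besides SETD7, SIRT4 and HDAC9, the untested members were KDM4D, at 0.391 ± 0.111 FPKM in vehicle and 0.893 ± 0.109 in treated cells (SD, n = 3), and KDM4E, listed at 0 in all 6 libraries. KDM4D and KDM4E are closely related in sequence.

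Subunits of the deacetylase corepressor complexes were mixed, with 17 of 33 lower and 11 higher (51.5% and 33.3%, beside 38.0% lower and 46.4% higher among all tested genes) and a median log2 change of -0.12. MTA2, a subunit of the NuRD complex of HDAC1 and HDAC2, fell 1.79-fold, from 97.9 ± 1.42 to 54.8 ± 1.14 FPKM (SD, n = 3). GFI1B, the erythroid repressor that recruits KDM1A, fell 1.93-fold. MIDEAS, the scaffold of a mitotic deacetylase complex, rose 1.68-fold. Histone acetyltransferases, which oppose the deacetylases in activity, were 4 higher and 3 lower of 10. Both shares lay below the 46.4% higher and 38.0% lower among all tested genes. CREBBP rose 1.45-fold and KAT2A fell 1.92-fold.

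Related methyltransferases fixed by name, which include arginine methyltransferases, were 10 lower and 5 higher of 17 (58.8% and 29.4%, beside 38.0% lower and 46.4% higher among all tested genes). Of the 17, 6 were lower by at least 2-fold on the log2 scale, beside 6.45% of all tested genes. WDR77, the cofactor of the arginine methyltransferase PRMT5, fell from 66.1 ± 0.487 to 22.6 ± 1.07 FPKM (SD, n = 3), and PRMT1 fell 2.61-fold. SMYD3 rose 2.61-fold, to 70.3 ± 0.491 FPKM. Related Jumonji proteins were 4 higher and 2 lower of 7 (57.1% and 28.6%, beside 46.4% and 38.0% of all tested genes). JMJD1C, a relative of KDM3B, rose 2.74-fold and JARID2, a catalytically inactive partner of Polycomb repressive complex 2, 1.41-fold, whereas the ribosomal hydroxylase RIOX1 fell 2.19-fold. Among readers of methylated histones, 5 of 10 tested fell and 4 rose, beside 38.0% lower and 46.4% higher among all tested genes. The Polycomb protein CBX2 fell 1.87-fold and L3MBTL2, of a variant Polycomb complex, fell 2.02-fold.

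Enzymes that supply cofactors went both ways. MAT2A, which makes the methyl donor S-adenosylmethionine, fell from 162 ± 5.67 to 87.6 ± 2.36 FPKM (SD, n = 3). NAMPT, which regenerates the NAD used by sirtuins, rose 3.60-fold, to 129 ± 2.78 FPKM. IDH1, a source of the 2-oxoglutarate used by Jumonji enzymes, rose 5.00-fold, from 15.5 ± 0.607 to 77.7 ± 0.376 FPKM. The list as a whole had 6 higher and 5 lower of 11 (54.5% and 45.5%, beside 46.4% and 38.0% of all tested genes). Over all 106 tested related genes, 36 were higher and 57 lower, or 34.0% and 53.8%, beside 46.4% and 38.0% of all tested genes.

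**Figure D3:**
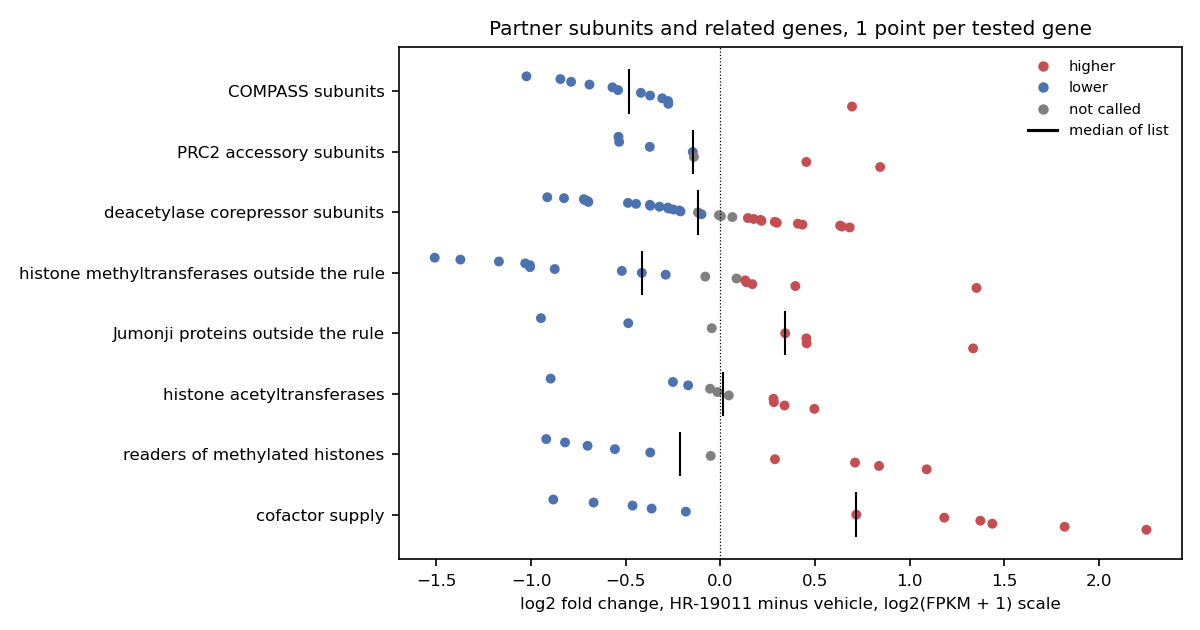
Log2 fold change (HR-19011 minus vehicle, x axis) of each tested gene in 8 lists of partner subunits and related genes, coloured by call, with a black bar at each list's median. COMPASS subunits lie below 0 except for PSIP1, and the lists of Jumonji proteins and cofactor enzymes have the highest medians, 0.34 and 0.72.

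Plain FPKM ratios of related enzymes within a library do not change when all values of that library are multiplied by the same factor. For all 14 pairs fixed by name the ratios of the groups did not overlap. The share of other gene pairs that separate in this way was not computed, and 85.2% of all tested genes separate on their own. Each pair had an exact two-sided permutation p = 0.1 (adjusted p = 0.1 over the 14 pairs), the smallest that 3 against 3 libraries can give. That test, and the shifts given on the log2 scale, used ratios with 1 FPKM added to both genes, which scaling can alter. KDM6A was listed at 1.92 ± 0.185 times the FPKM of KDM6B in vehicle and 0.511 ± 0.0215 times in treated cells (SD, n = 3), so the more abundant gene of the pair differed between the groups. EZH2 exceeded EZH1 by 8.95 ± 0.332 times in vehicle and 5.66 ± 0.440 times in treated cells. The ratio of KDM1A to KDM1B went from 4.74 ± 0.205 to 2.57 ± 0.0883.

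Other pairs reversed order, drew closer or moved further apart. KDM2A was slightly below KDM2B in vehicle, at 0.945 ± 0.0334, and above it in HR-19011, at 1.64 ± 0.00226. HDAC6 over HDAC10 went from 1.80 ± 0.0813 to 3.30 ± 0.213, and HDAC4 over HDAC5 from 0.295 ± 0.0215 to 0.137 ± 0.0144. SETD1A over SETD1B fell from 2.06 ± 0.140 to 1.41 ± 0.0124, a drawing together of the 2 paralogs. The smallest shift was HDAC1 over HDAC2, from 5.40 ± 0.0993 to 6.08 ± 0.190. The other 6 pairs shifted by -0.32 to 0.41 on the log2 scale.

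**Figure D4:**
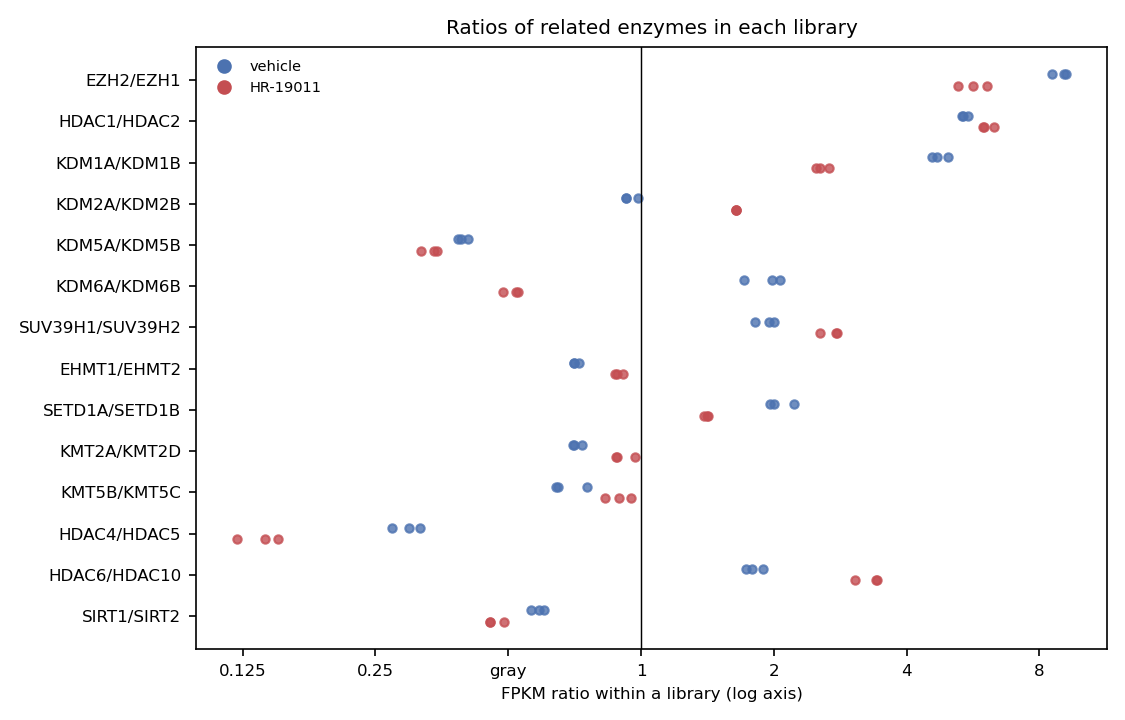
FPKM ratio of 14 pairs of related enzymes on a log axis, 1 point per library, vehicle and HR-19011. The vertical line marks equal levels. The axis tick printed as gray is a labelling error and lies midway between its neighbouring ticks on the log axis. KDM6A/KDM6B and KDM2A/KDM2B cross that line between the groups, and no pair's groups overlap.

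By level, the order at the top of the set changed. In vehicle libraries it was HDAC1 at 97.7 ± 2.56 FPKM (SD, n = 3), KDM1A at 71.8 ± 1.238, HDAC3 at 59.97 ± 0.615, then KMT5A at 56.0 ± 1.00 and EZH2 at 53.4 ± 3.31, whose libraries overlapped. In HR-19011 it was HDAC1 at 74.1 ± 1.495, KMT5A at 67.0 ± 0.991 and EZH2 at 55.2 ± 4.70. HDAC3, KDM1A and KDM5C followed at 42.7 ± 1.35, 42.3 ± 0.802 and 42.2 ± 1.12, with overlapping libraries. Across the 56 tested members, the log2 fold change and the mean vehicle FPKM had a Spearman rho of -0.51, and across all 11856 tested genes -0.46. These are descriptions across genes measured in the same libraries, in which the vehicle level also enters the fold change. Summed over the 61 members, FPKM was 972 ± 11.6 in vehicle and 925 ± 14.4 in treated cells, or 0.209% to 0.212% and 0.217% to 0.220% of each library's total. Mitochondrial genes made up 19.98% to 20.97% of the total in vehicle and 13.9% to 14.4% in treated libraries, and their part in the shares was not tested.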

How the data were processed

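RNA was sequenced from 6 K562 libraries, 3 vehicle and 3 HR-19011. The authors deposited 1 FPKM value per gene and library, per the file headers. Tools listed in the submitters' processing notes, without their roles, are StringTie 2.1.3b, DESeq2 1.24.0, SAMtools 1.9, HISAT2 2.1.0, Trimmomatic 0.38, Bowtie2 and HISAT, and the build is GRCh38. Per the labels' protocols, libraries were stranded and poly(A) selected. Low values gave at most 33.3% whole reads (tolerance 0.1), so depth is unknown and no count test was run. limma 3.58.1 in R 4.3.3 was fitted to log2(FPKM + 1) over 11856 genes that averaged 1 FPKM or more, with a trended variance prior and Benjamini-Hochberg adjustment over all of them, and the test was tried on simulated data. Pair ratios used exact permutation tests. Alternatives changed the pseudocount, filter, scaling, threshold, replicate block and libraries; counts by class and for related genes and the pair pseudocounts were added after seeing the data. The members and lists were chosen with earlier results of these data known. Values by library were planned for members changed at least 2-fold, the most abundant and the lowest-p member of each class and members of pairs, with up to 3 lowest-p genes per related list; other members are named by class, after their values were seen. Promoters came from RefSeq GRCh38.p14. A pair of further genes that fit the symbol pattern are not reported here.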

Additional observations from a re-analysis of the deposited data

How the results depend on the processing

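The 23 higher and 23 lower members became 14 higher and 33 lower after TMM scaling. All tested genes were then 35.0% higher and 50.1% lower. Tested against a 1.5-fold change, the 56 members were 7 higher and 5 lower, beside 18.6% and 12.8% of all tested genes. Related genes, 36 higher and 57 lower of 106 tested, became 12 and 21 against 1.5-fold, beside the same shares. Leaving out each library in turn gave 21 to 24 higher and 20 to 22 lower members. After TMM scaling the log2 change turned sign for 12 of the 56 tested members: KMT2C (-0.14), SETD2 (-0.19), SETD3 (-0.14), SIRT6 (-0.15), KMT2E (-0.029), EZH2 (-0.19), KMT5B (-0.042), KDM1B (-0.11), KDM5C (-5.91e-05), KDM6A (-0.060), HDAC4 (-0.11) and HDAC10 (-0.076). TPM conversion turned 4, KMT2A (0.11), KDM3B (0.11), SETD4 (0.097) and SIRT7 (0.0015), and quantile normalization 6, KMT2C (-0.043), SIRT6 (-0.0043), KDM3B (0.061), KDM6A (-0.0093), HDAC4 (-0.33) and HDAC10 (-0.0096). EZH2 ran from -0.013 to 0.11 over the fits that left out 1 library, turning sign without vehicle replicate 1 or HR-19011 replicate 2. Beyond the scalings, the cause of these reversals was not tested. With a replicate block the members were 22 higher and 22 lower, and KDM1B lost its call (limma adjusted p = 0.0503). Same-numbered libraries had correlated deviations of -0.03, -0.00448 and -0.11, so the numbers were not taken to pair them. Read depth is unknown, which leaves the precision of low values such as HDAC9 and KDM4D unstated.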
